A study of Mus musculus with 6 samples.

Results

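The genes of mitochondrial and peroxisomal fatty acid oxidation were followed in primary neuronal cultures with reduced Pla2g4e. They were a list of 34 genes chosen by symbol for their known part in the carnitine shuttle, in beta-oxidation in mitochondria and peroxisomes, in the electron transfer flavoprotein, in acyl-CoA hydrolysis or in the control of these genes. The rule used no measured value, although the list was drawn up with earlier results of these data known, and each of the 34 symbols matched 1 of the 55357 genes counted. All 34 had at least 6 reads in at least 1 library and were tested among 21876 genes.

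The cultures held cortical and hippocampal cells of wild-type E18 C57BL/6N mouse embryos, and all had been transduced with a lentivirus at DIV4 (day in vitro) and were collected at DIV14. In the shCtrl group the virus carried a control or scrambled shRNA, and in the shPla2g4e group the sh2 shRNA against Pla2g4e, a calcium-dependent N-acyltransferase that makes N-acyl phosphatidylethanolamines. Each group had 3 libraries of polyadenylated RNA. The virus dose had been set by its effect on the Pla2g4e transcript, the control virus was given in the same amount, and 1 shRNA sequence stood for the knockdown. Nothing in the labels or methods says that the libraries of a group came from separate cultures or litters, so that p-values measure the spread between these libraries, which may be technical.

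In fatty acid oxidation an acyl chain is shortened by repeated rounds of dehydrogenation, hydration, a second dehydrogenation and thiolysis, each round releasing acetyl-CoA. Long chains reach the mitochondrial matrix as carnitine esters, while very long and branched chains are first shortened in peroxisomes, whose first step passes electrons to oxygen instead of to the respiratory chain. Neurons use fatty acids little as fuel, astrocytes carry out most of the oxidation known in brain, and thioesterases can take an acyl chain out of the pathway by splitting acyl-CoA into a free fatty acid and CoA.

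Between 17054717 and 23570180 reads were counted per library, and the 34 genes together took 0.124% to 0.142% of them. Levels are given as CPM, read counts scaled by library size and TMM factor. Pla2g4e stood at 38.0, 35.1 and 35.4 CPM in shCtrl and at 21.8, 14.1 and 18.7 CPM in shPla2g4e. The groups did not overlap, and the shPla2g4e mean was 50.5% of the shCtrl mean (edgeR log2 fold change −0.99, SE 0.13, adjusted p = 1.24e-04). Neuronal genes were abundant in every library, with Map2, a dendritic microtubule-associated protein, at 1120 to 1661 CPM. Astrocyte genes were present too. Their 10 markers summed to 3571, 3948 and 4642 CPM in shCtrl and to 2529, 2259 and 3944 CPM in shPla2g4e, with Slc1a2, a glutamate transporter, the highest at 768 to 1357 CPM. Aqp4, Gja1 and Slc1a2 fell (log2 fold changes −1.19, −0.66 and −0.50, adjusted p = 8.53e-04, 0.00242 and 0.00778), and with a replicate block 8 of the 10 markers were called lower and 1, S100b, higher. The call of Aqp4 was lost in DESeq2 and in the robust fit (adjusted p = 0.0124 and 0.122). That of Gja1 was lost in the robust fit (0.0139) and without shPla2g4e replicate 1 or 2 (0.0161 and 0.0121). That of Slc1a2 was lost under upper-quartile scaling, library size alone and the stricter filters (0.0133 to 0.0196) and without any library but shPla2g4e replicate 3 (up to 0.0531). The 8 pan-neuronal markers summed to 5610 to 6200 CPM in shCtrl and 5155 to 5683 CPM in shPla2g4e. Of these, Map2 and Rbfox3 fell and Nefl rose (log2 fold changes −0.45, −0.41 and 0.48, adjusted p = 0.00123, 0.00477 and 0.00142), calls that Map2 and Nefl lost without shCtrl replicate 2 (adjusted p = 0.0157 and 0.0197) and Rbfox3 without any library but shCtrl replicate 3 (0.0117 to 0.0271). With the block Dlg4 was called lower and Snap25 higher as well (adjusted p = 0.00928 and 3.53e-04). In bulk RNA, fewer cells of a type and less RNA per cell cannot be told apart. The microglial sum was at most 7.73 CPM in any library, with C1qa the highest marker. The oligodendrocyte-lineage sum, led by Mbp, was 516 to 640 CPM. Endothelial and mural markers summed to 26.5 to 72.3 CPM, led by Acta2 and with Cldn5 at 0 reads in all libraries, and fibroblast markers, led by Dcn, to 18.6 to 33.0 CPM. edgeR called none of these 4 lists' genes, with 3 lower and 3 higher at an unadjusted p under 0.05, beside 2830 and 2795 of all 21876 genes tested. From these lists limma after voom and DESeq2 called none either, while the block called Olig2 lower and Col1a1 and Col1a2 higher.

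The knockdown sequence is shown because its seed can pair with transcripts other than Pla2g4e. The guide strand of sh2, 5′ to 3′ with its seed (bases 2 to 8) in capitals, and its target in the coding sequence of Pla2g4e, with the 7 bases that pair with the seed in capitals, read as follows. The target lies in exon 11 on the minus strand of chr2:120182753-120182771 (GRCm38).

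sh2 guide strand: tTGGCCACcaccatcttcc
sh2 target in Pla2g4e: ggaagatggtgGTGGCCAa

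The 7-base seed site GTGGCCA occurred in an annotated 3′ UTR (GENCODE vM21) of 5 of the 34 genes, or 14.7%, against 17.4% of the 15743 tested genes with such a UTR, and among all tested genes in 46.8% of those called lower and 11.1% of those called higher. The sites of 5 genes are given below with the site in capitals and 11 bases on either side. They lie at chr19:3385190-3385196 (Cpt1a, exon 19), chr5:35612503-35612509 (Acox3, exon 19, the first of 2 in this transcript), chr15:89416834-89416840 (Cpt1b, exon 19), chr4:15918797-15918803 (Decr1, exon 10) and chr7:140106187-140106193 (Echs1, exon 8), all in GRCm38, with Cpt1a and Acox3 on the plus strand and Cpt1b, Decr1 and Echs1 on the minus strand.

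Cpt1a: gtgagggtgggGTGGCCAgaagtacagag
Acox3: cctgctgtgggGTGGCCAtacttctctat
Cpt1b: agaagaggcctGTGGCCAgctcacaggca
Decr1: ccaggtcagggGTGGCCActctgtattga
Echs1: gcttcagggctGTGGCCAcagcttgggta

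These 5 genes had log2 fold changes of −0.37 (Cpt1a), −0.05 (Acox3), 0.37 (Cpt1b), −0.15 (Decr1) and 0.05 (Echs1), none of them past the threshold in the fit as reported. Cpt1a was past it with the block and in 4 of the other alternatives. Acot7 and Acadl held no such site in a 3′ UTR or in the coding sequence of the transcript examined. In the coding sequence Acaa1a, Acaa2, Cpt1c, Etfb, Hsd17b10 and Hsd17b4 held 1 each, Ppara 2 and Ehhadh 3. These are 8 of the 34 genes, or 23.5%, against 25.6% of the 15849 tested genes with a coding transcript. Among all tested genes a coding site occurred in 39.3% of those called lower and 23.4% of those called higher. A match is a description of the letters only, and repression through any of these sites was not tested.

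Most of the 34 genes differed little between the groups. Acot7 and Acaa2 were called lower at an adjusted p under 0.01 (edgeR), which is 5.88% of the 34 beside 4.00% of all genes tested (7.66% of those whose mean log2 CPM was 3 or more, where 28 of the 34 lay). None was called higher, beside 2.48% of all genes and 3.43% of the well-expressed ones, and limma after voom and DESeq2 also called none higher. At an unadjusted p under 0.05 (edgeR), 7 of the 34 were lower and 1 higher, beside 2830 and 2795 of all 21876 genes tested. With the replicate number as a block Acadl and Cpt1a were called lower as well, which made 4 genes or 11.8% beside 9.02% of all genes, and again none was called higher, beside 6.50%. The share called lower was thus near that of all genes in either fit. Acot7 alone was called without shCtrl replicate 1, 2 or 3 or shPla2g4e replicate 1, and 4 genes were called lower without shPla2g4e replicate 3.

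By value, 21 of the 34 log2 fold changes were below 0 and 13 above, with a median of −0.05. Over all genes tested the median was 0.03, and over those whose mean log2 CPM was 3 or more it was −0.02. With library size alone as the scaling the median of the 34 turned to 0.02 while that of all genes moved to 0.10, and without shPla2g4e replicate 1 or 3 it was 0.0022 and −0.13. The shPla2g4e libraries lay wholly below the shCtrl libraries for 8 genes (Acot7, Acaa2, Acadl, Cpt1a, Acat1, Hadhb, Acot2 and Ehhadh), or 23.5% beside 14.6% of all genes, and wholly above them for none, beside 15.5%. For 22 of the 32 genes not called, the 95% interval of the log2 fold change lay within 0.5 on either side of 0.

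Together the 34 genes summed to 1357, 1416 and 1424 CPM in shCtrl and to 1224, 1262 and 1338 CPM in shPla2g4e, without overlap. Acot7 alone supplied 15.4%, 15.3% and 12.6% of that sum in shCtrl and 8.86%, 8.50% and 8.10% in shPla2g4e. Without Acot7 the sums were 1148, 1199 and 1245 CPM against 1115, 1155 and 1229 CPM (replicates 1, 2 and 3), so that the groups overlapped while the shPla2g4e library was the lower one in each of the 3 same-numbered pairs.

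**Figure D1:**
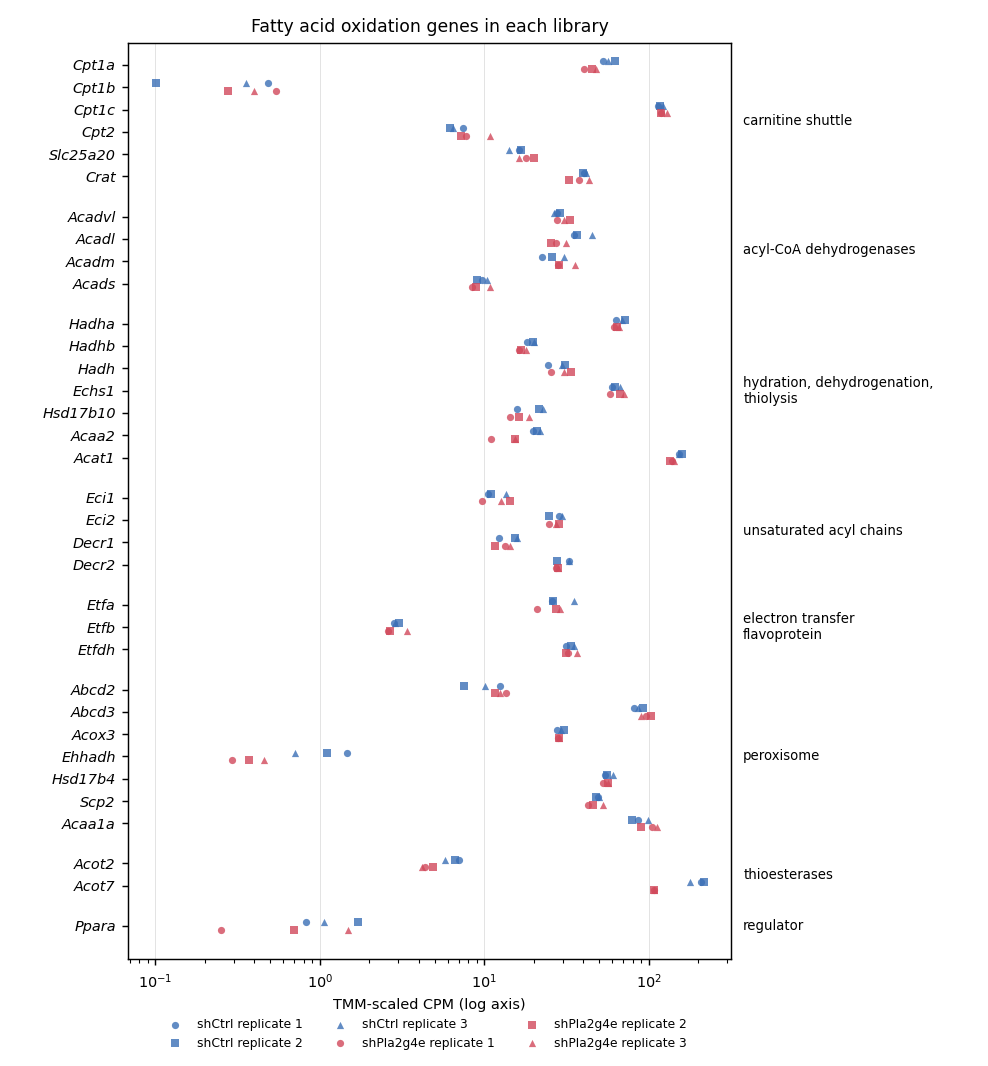
TMM-scaled CPM of each of the 34 genes in each of the 6 libraries (log axis), grouped by role, with shCtrl in blue and shPla2g4e in red and the marker shape giving the replicate number. The levels run from Cpt1b, at most 0.544 CPM, to Acot7, at 179 to 217 CPM in shCtrl and 107 to 108 CPM in shPla2g4e, and the red and blue points of most genes overlap.

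Levels of different genes were compared per length, as RPKM (CPM per kilobase of annotated exon), where a gene with long rare exons reads lower. In the shCtrl libraries Acot7 led with 95.0 ± 9.34 RPKM (SD, n = 3), followed by Acat1 with 41.4 ± 1.16, Cpt1c with 21.1 ± 0.66, Acaa1a with 20.0 ± 2.20 and Acadl with 19.5 ± 2.71 RPKM. Acot7 and Acat1 stood apart from the next gene in all shCtrl libraries, while Cpt1c, Acaa1a and Acadl overlapped each other, as did 26 of the 33 pairs of neighbours in the order. The median of the 34 was 7.10 RPKM, 13 genes exceeded 10 RPKM, and Ehhadh, Ppara and Cpt1b stayed under 1 RPKM. In the shPla2g4e libraries Acot7 still led, with 50.9 ± 0.30 RPKM, and 6 genes moved by 3 places or more. Acadl (5th to 8th), Acaa2 (10th to 13th) and Acot2 (26th to 31st) moved down, and Abcd3 (11th to 6th), Acadm (18th to 15th) and Cpt2 (28th to 25th) moved up.

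The carnitine shuttle carries long acyl chains into mitochondria. Cpt1a, the outer-membrane carnitine palmitoyltransferase that malonyl-CoA inhibits and that sets the rate of entry in most tissues, had 52.7, 62.2 and 56.4 CPM in shCtrl and 40.3, 45.1 and 47.6 CPM in shPla2g4e. Every shPla2g4e library lay below every shCtrl library. The log2 fold change was −0.37 (SE 0.09), which missed the threshold in edgeR (adjusted p = 0.0163) and passed it with the replicate block (adjusted p = 2.50e-04), and in the fit without the block it passed it when shPla2g4e replicate 3 was left out (adjusted p = 0.00799) and not when any other library was (0.0170 to 0.111).

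Cpt1c, the brain form of the same enzyme that sits in the endoplasmic reticulum and has little transferase activity, was the highest of the shuttle genes. It had 115, 117 and 122 CPM in shCtrl and 118, 119 and 129 CPM in shPla2g4e, so that the groups overlapped, and the 95% interval of its log2 fold change of 0.05 ran from −0.12 to 0.21 (adjusted p = 0.764). Cpt1b, the muscle form, had 2 to 13 reads in a library, and 81.4% of its exon bases overlap another gene on the same strand, Gm44502, so that its reads could be lost to the counting.

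The remaining shuttle genes were not called. Cpt2, which hands the chain back to CoA inside the mitochondrion, had a log2 fold change of 0.36 (95% interval −0.03 to 0.74), with 7.47, 6.19 and 6.44 CPM in shCtrl and 7.78, 7.21 and 10.9 CPM in shPla2g4e, the highest value being that of shPla2g4e replicate 3. Slc25a20, the inner-membrane carnitine-acylcarnitine carrier, gave 0.20 (−0.06 to 0.46), and Crat, which acts on acetyl and other short chains, −0.11 (−0.32 to 0.11).

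**Figure D2:**
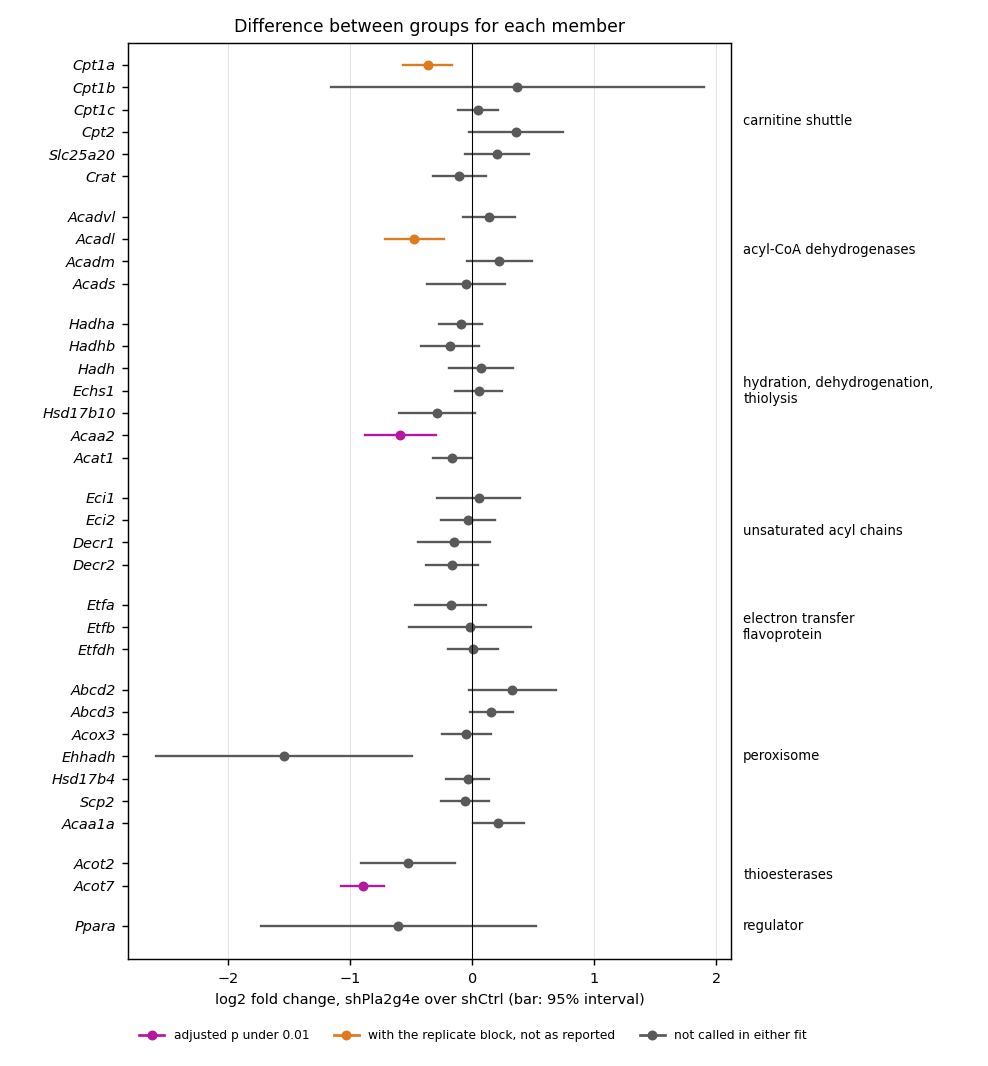
Log2 fold change of each of the 34 genes, shPla2g4e over shCtrl (points), with its 95% interval (bars), grouped by role. Acot7 and Acaa2 (purple) were called at an adjusted p under 0.01, Acadl and Cpt1a (orange) were called with the replicate block but not in the fit as reported, and the wide bars of Cpt1b, Ehhadh and Ppara belong to genes with few reads.

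The acyl-CoA dehydrogenases of the mitochondrial matrix open each round of the cycle and differ in the chain length they take. Acadl, the long-chain enzyme and the highest of the 4, had 35.2, 36.6 and 45.2 CPM in shCtrl and 27.5, 25.4 and 31.5 CPM in shPla2g4e. The groups did not overlap, and replicate 3 was the highest library of each group. The same held for the sum of the astrocyte markers, and also for Acadm, whose log2 fold change was above 0. The log2 fold change of Acadl was −0.48 (SE 0.11), just short of the threshold in edgeR (adjusted p = 0.0110) and past it with the replicate block (adjusted p = 2.89e-05). Without the block it was also past it when shPla2g4e replicate 3 was left out (adjusted p = 0.00260), and not when any other library was (0.0117 to 0.0602).

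None of the other dehydrogenases was called. Acadvl, for very long chains, had a log2 fold change of 0.13 (95% interval −0.08 to 0.35), and 42.9% of its exon bases overlap Dvl2 on the other strand, whose reads the counting could not separate. Acadm, for medium chains, gave 0.22 (−0.05 to 0.48), and Acads, for short chains, −0.05 (−0.37 to 0.27). The interval of Acadl, −0.72 to −0.23, did not overlap that of Acadm, and the difference between these genes was not tested.

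The next steps of the mitochondrial cycle are hydration, a second dehydrogenation and thiolysis. Acaa2, the mitochondrial 3-ketoacyl-CoA thiolase, had 19.7, 21.0 and 22.0 CPM in shCtrl and 11.0, 15.4 and 15.4 CPM in shPla2g4e. All shPla2g4e libraries lay below all shCtrl libraries, with shPla2g4e replicate 1 the lowest. The log2 fold change was −0.59 (SE 0.14, adjusted p = 0.00869, edgeR; adjusted p = 2.09e-05 with the block). The call was close to the threshold and was lost without shCtrl replicate 1, 2 or 3 (adjusted p = 0.0177, 0.0391 and 0.0345) or without shPla2g4e replicate 1 (adjusted p = 0.0489, log2 fold change −0.44).

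Acat1, the mitochondrial acetoacetyl-CoA thiolase that also serves ketone bodies and isoleucine, was the most abundant gene of these steps. It had 154, 160.4 and 152 CPM in shCtrl and 139, 135 and 142 CPM in shPla2g4e. The groups did not overlap, yet the log2 fold change of −0.16 (95% interval −0.32 to −0.01) did not pass the threshold (adjusted p = 0.177).

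Hadha and Hadhb, the alpha and beta subunits of the trifunctional protein that runs these steps on long chains, gave log2 fold changes of −0.10 (−0.27 to 0.08) and −0.19 (−0.42 to 0.05). Hadhb was lower in all shPla2g4e libraries, at 16.2, 16.9 and 17.9 CPM against 18.2, 19.8 and 20.0 CPM, and 19.7% of the 50-base stretches of its transcripts occur in other genes, pseudogenes among them. Hadh, a dehydrogenase for shorter chains, gave 0.07 (−0.19 to 0.33), and Echs1, the short-chain hydratase, 0.05 (−0.14 to 0.24). Hsd17b10, a hydroxyacyl-CoA dehydrogenase that is also a subunit of mitochondrial RNase P, gave −0.29 (−0.60 to 0.02). None of these 5 genes was called in either fit.

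**Figure D3:**
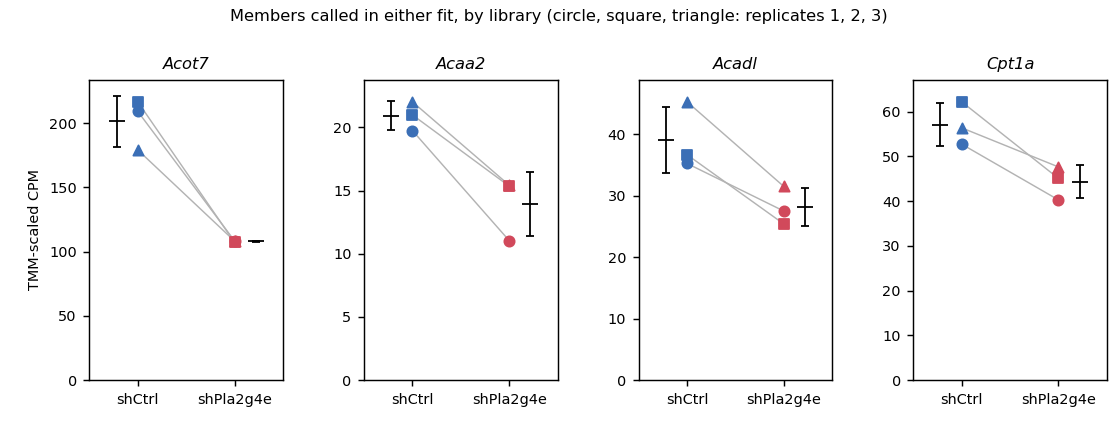
TMM-scaled CPM of Acot7, Acaa2, Acadl and Cpt1a in each library, with circles, squares and triangles for replicates 1, 2 and 3, grey lines joining libraries of the same number, and black bars giving the mean ± SD of each group (n = 3). All lines slope down, and the shPla2g4e values of Acot7 lie within 107 to 108 CPM while its shCtrl values spread from 179 to 217 CPM.

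Double bonds already present in an acyl chain need auxiliary enzymes. Decr2, the peroxisomal 2,4-dienoyl-CoA reductase and the highest of these 4 genes per length, had 32.8, 27.9 and 32.9 CPM in shCtrl and 27.2, 28.3 and 28.0 CPM in shPla2g4e. The groups overlapped through shCtrl replicate 2, and the log2 fold change was −0.17 (95% interval −0.38 to 0.04, adjusted p = 0.318). Decr1, its mitochondrial counterpart, gave −0.15 (−0.45 to 0.15), and the enoyl-CoA isomerases Eci1 and Eci2 gave 0.05 (−0.29 to 0.39) and −0.04 (−0.26 to 0.18). None was called in either fit.

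The electron transfer flavoprotein takes the electrons of the acyl-CoA dehydrogenases to ubiquinone. Etfa, its alpha subunit, had 25.9, 26.4 and 35.0 CPM in shCtrl and 21.1, 27.6 and 28.9 CPM in shPla2g4e. The groups overlapped and the log2 fold change was −0.18 (95% interval −0.47 to 0.11, adjusted p = 0.474). Etfdh, the oxidoreductase that passes the electrons on, gave 0.00 (−0.20 to 0.21). Etfb, the beta subunit, gave −0.02 (−0.52 to 0.48) from 58 to 65 reads a library, and 58.2% of its exon bases overlap other genes on the same strand.

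The peroxisomal genes were likewise not called in either fit. Acaa1a, the peroxisomal 3-ketoacyl-CoA thiolase, was the highest of them, with 86.0, 79.7 and 98.7 CPM in shCtrl and 104, 89.8 and 112 CPM in shPla2g4e. The groups overlapped, and the log2 fold change of 0.21 (95% interval 0.00 to 0.42) had an adjusted p of 0.190 in edgeR and 0.0165 with the replicate block. This was the gene with the smallest p among those with higher values.

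Of the peroxisomal ABC transporters that bring in acyl-CoA, Abcd3 gave a log2 fold change of 0.15 (−0.02 to 0.33) and Abcd2 0.33 (−0.03 to 0.68), with Abcd2 lowest in shCtrl replicate 2 at 7.50 CPM. Acox3, an acyl-CoA oxidase for branched chains, gave −0.05 (−0.25 to 0.15), and Hsd17b4, the D-bifunctional protein of the next steps, −0.04 (−0.21 to 0.14). Scp2, whose longer product is a thiolase for branched chains, gave −0.06 (−0.25 to 0.14), with 29.7% of its 50-base stretches shared with a pseudogene.

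Ehhadh, the L-bifunctional protein and a classic target of PPARA in liver, had the lowest log2 fold change of the 34, −1.55 (95% interval −2.59 to −0.50), from 30, 22 and 16 reads in shCtrl and 7, 8 and 8 reads in shPla2g4e. The groups did not overlap, and the difference missed the threshold with and without the block (adjusted p = 0.0431 and 0.0508).

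The acyl-CoA thioesterases held the gene with the clearest difference. Acot7, the long-chain acyl-CoA thioesterase that is abundant in brain and in neurons, had 209, 217 and 179 CPM in shCtrl and 108, 107 and 108 CPM in shPla2g4e. The shPla2g4e mean was 53.6% of the shCtrl mean, with shCtrl replicate 3 the lowest control and still far above every shPla2g4e library. The log2 fold change was −0.90 (SE 0.08, adjusted p = 5.50e-06, edgeR), and it stayed between −0.98 and −0.82 and past the threshold in all 16 alternatives. No exon base of Acot7 (chromosome 4, 152262591 to 152356312, plus strand, GRCm39) overlaps another gene, and none of its 50-base stretches occurs in another.

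Acot2, a mitochondrial thioesterase, had 7.03, 6.64 and 5.82 CPM in shCtrl and 4.39, 4.90 and 4.17 CPM in shPla2g4e. Its libraries did not overlap either, and its log2 fold change of −0.53 (95% interval −0.91 to −0.15) missed the threshold (adjusted p = 0.0668, with the block 0.0211). In the near-identical neighbour Acot1, a cytosolic enzyme, the value was −0.41 (adjusted p = 0.120), and 27.7% of the 50-base stretches of Acot2 occur in other Acot genes, so that reads of these copies could be left out or not be told apart.

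Ppara, the fatty acid-activated nuclear receptor that drives many of these genes in liver, was close to absent. It had 17, 34 and 24 reads in shCtrl and 6, 15 and 26 reads in shPla2g4e, and the log2 fold change of −0.61 had a 95% interval from −1.73 to 0.52 (adjusted p = 0.535). The groups overlapped through shPla2g4e replicate 3. Among 16 other PPAR, partner, coactivator and PPARA target genes edgeR called none. At an unadjusted p under 0.05 (edgeR), 2 were lower and 1 higher, beside 2830 and 2795 of all 21876 genes tested. With limma after voom, DESeq2 and the block none of the 16 was called either. Their median log2 fold change was −0.11.

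Of 24 further genes of fatty acid oxidation outside the 34, 1 was called lower and 1 higher, with −0.02 as their median log2 fold change. Their shPla2g4e libraries lay wholly below the shCtrl libraries for 3 genes and wholly above for 4, beside 14.6% and 15.5% of all genes. Among the 34 these counts were 8 and 0. Acad11, an acyl-CoA dehydrogenase for long chains, rose from 26.4, 25.9 and 24.1 CPM in shCtrl to 33.5, 35.5 and 32.2 CPM in shPla2g4e (log2 fold change 0.41, adjusted p = 0.00958, edgeR). The call of Acad11 was lost with DESeq2 size factors (adjusted p = 0.0110) and without any library but shPla2g4e replicate 3 (up to 0.0396). With the block 2 were called in each direction.

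Pathways that share acetyl-CoA or acyl-CoA with beta-oxidation were read from the same fit. Of 5 ketone body enzymes, 2 were called lower. Bdh1, the mitochondrial 3-hydroxybutyrate dehydrogenase, fell from 105, 101 and 104 CPM to 69.6, 73.5 and 73.2 CPM (log2 fold change −0.52, adjusted p = 2.66e-04), in all 16 alternatives. Aacs, cytosolic acetoacetyl-CoA synthetase, fell with −0.48 (adjusted p = 0.00696), a call lost under upper-quartile scaling, library size alone and the stricter filters (0.0102 to 0.0127) and without shCtrl replicate 1 or 2 or shPla2g4e replicate 1 or 2 (up to 0.0355).

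Of 11 enzymes of branched-chain and lysine acyl-CoA breakdown, Hibch, the valine pathway hydrolase, rose (log2 fold change 0.53, adjusted p = 0.00614, edgeR), a call lost without any library but shPla2g4e replicates 2 and 3 (up to 0.0386), and with the block Ivd and Auh were called lower as well. Of 17 genes of peroxisome biogenesis and catalase, Pex19, the import receptor for peroxisomal membrane proteins, was the 1 called. It fell from 109, 114 and 107 CPM to 77.0, 74.8 and 71.1 CPM (−0.56, adjusted p = 1.58e-04), in all 16 alternatives, while the catalase gene Cat had a log2 fold change of −0.03. Of 17 tricarboxylic acid cycle genes edgeR called none. At an unadjusted p under 0.05 (edgeR), 2 were lower and 4 higher, beside 2830 and 2795 of all 21876 genes tested. Among these 17, limma after voom called 1 lower and DESeq2 2 lower, and the block called Cs and Idh3a lower and Sdhb and Sdhc higher.

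**Figure D4:**
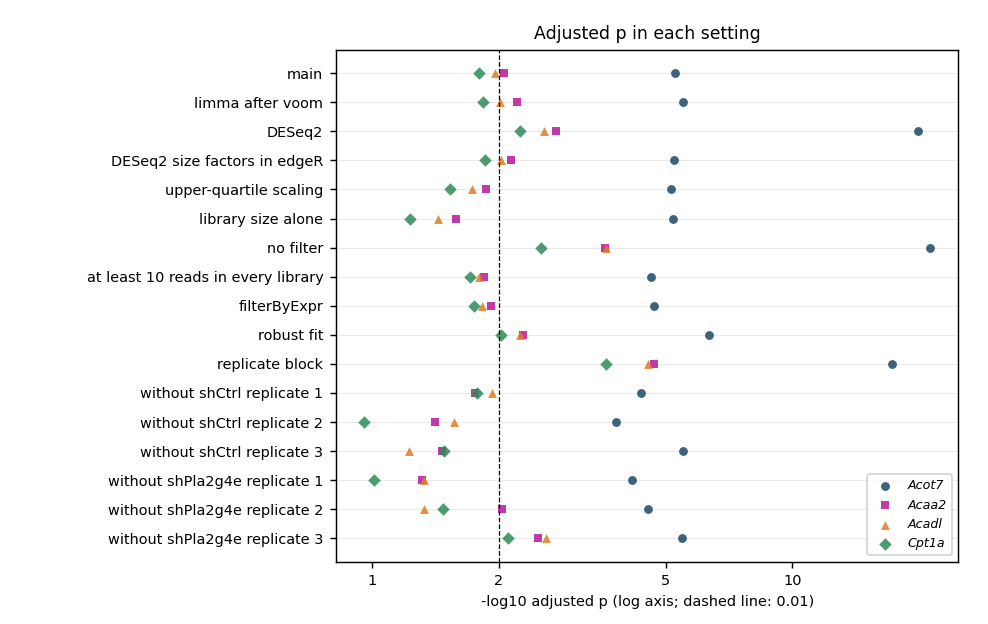
Adjusted p of Acot7, Acaa2, Acadl and Cpt1a, as −log10 on a log axis, in the fit as reported (main) and in each of 16 alternatives, with the dashed line at 0.01. Acot7 lies right of the line in every row, and Acaa2, Acadl and Cpt1a fall on either side of it.

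Besides the fit as reported, Acaa2 was called in 8 of 16 alternatives, Acadl in 7 and Cpt1a in 5, all of them with a negative log2 fold change throughout. Acaa2, Acadl, Cpt1a and Acot7 were lower in shPla2g4e than in shCtrl within each pair of same-numbered libraries. They were picked because they were called lower with or without the block, which favours such a pattern. Of all genes tested, 23.5% were lower in each pair and 25.6% higher. The astrocyte, pan-neuronal and microglial marker sums were lower in each pair too, and the fibroblast sum was higher. The oligodendrocyte-lineage sum and the endothelial and mural sum were mixed. The part of cell composition in these differences was not tested.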

How the data were processed

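Libraries were assigned to groups from the public labels. The authors aligned reads with STAR (2.7.0d per the labels), counted reads on exons with featureCounts 1.6.0 and deposited raw counts per gene, 1 file per library, without normalization. The file headers name GENCODE release 28 of the mouse and the labels GRCm39, whereas the methods name mm10 and GENCODE M18. Coordinates of genes are those of the deposited counts, and coordinates of sequences are GRCm38 (GENCODE vM21, which also gave the symbols, for 52081 of 55357 identifiers, the rest taking 0.286% to 0.387% of the reads). The kit was stranded but the counting used neither strand nor read pairs, and left out multi-mapping reads and reads on overlapping genes, which lowers genes with copies. No pair of libraries differed by less than the sampling noise (chi-square per gene 6.03 to 15.4 within groups).

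The test was edgeR 4.0.16 in R 4.3.3 (TMM, glmQLFit, glmQLFTest) on the 21876 genes that reached 6 reads in 1 or more libraries, with Benjamini-Hochberg adjustment over all of them and a threshold of 0.01. Standard errors came from the F statistic, and 95% intervals from these. The fits were also run on simulated counts with the same dispersion for every gene. Unlike these data, the simulation had no pairing of libraries, and no result is drawn from it. Alternatives were limma 3.58.1 after voom, DESeq2 1.42.0, other scalings and filters, 0.05 as the threshold, the robust fit, the replicate number as a block, and each library left out in turn. The libraries are numbered 1 to 3 in both groups. Same-numbered libraries deviated together from their group means (correlations 0.392, 0.189 and 0.461 over 10908 genes, against −0.393 to 0.108 for the others), so that the numbers were taken as pairs, and the blocked value is given where it changes a call. RPKM used the exon length in the deposited files.

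The 34 genes and the other lists were chosen with earlier results of these data known. Every one of the 34 is reported. Values per library are given for those called with or without the block and for the highest per length of each role, and for others where they show a range. Of each other list the called genes with the smallest p are named, except 1 that is not reported here, and of each marker list the most abundant gene. S100b, Acot1, Cat, Cldn5 and genes called only with the block were named after their values were seen.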

Additional observations from a re-analysis of the deposited data

How the results depend on the processing

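Acot7 was called lower in all 16 alternatives, and no alternative called any of the 34 genes higher. The 2 genes called lower became 4 in DESeq2, without a filter, in the robust fit and at an adjusted p of 0.05, and 1 with upper-quartile scaling, library size alone, at least 10 reads in every library or filterByExpr. The paired fit with the replicate block called 4 of the 34 and 3395 genes in all, against 2 and 1419 without it, and changed no other call of the 34. Leaving out each library gave 1 to 4 of the 34, 695 to 1613 genes in all and a median log2 fold change of the 34 from −0.13 (without shPla2g4e replicate 3) to 0.0022 (without shPla2g4e replicate 1). Without a filter 2349 genes were called, and at 0.05 2813. With library size alone the median of the 34 was 0.024 and the calls over all genes split into 609 lower and 796 higher, against 876 and 543. Among 540 values of single genes under these alternatives, 27 changed sign, over 11 genes, none of them called. The causes were not tested. DESeq2 gave no adjusted p for 5514 genes, 1 of the 34 among them, and 31 of the 34 remained at 10 reads in every library.

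With 3 libraries a group, log2 fold changes of −0.37 to −0.59 (Cpt1a, Acadl and Acaa2) lay on either side of the threshold. Cpt1b, Ehhadh and Ppara had at most 34 reads a library and the widest intervals of the 34.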

Other observations

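Ratios of related enzymes within a library do not depend on how libraries are scaled. The pairs below were chosen after the values of the genes were seen, and no test was made. The per-length level of Acadl, the long-chain dehydrogenase, over that of Acadm, the medium-chain one, was 3.05, 2.78 and 2.88 in the shCtrl libraries and 1.91, 1.74 and 1.73 in the shPla2g4e libraries. The ratio of the mitochondrial thiolase gene Acaa2 to the peroxisomal thiolase gene Acaa1a was 0.67, 0.77 and 0.65 in shCtrl and 0.31, 0.50 and 0.40 in shPla2g4e. Cpt1a over Cpt1c, the outer-membrane form over the brain form, was 0.34, 0.39 and 0.34 in shCtrl and 0.25, 0.28 and 0.27 in shPla2g4e. In each of these 3 pairs the groups did not overlap.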
